A study of Mus musculus with 6 samples.

Results

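Transcripts of the pore-forming alpha1 subunits of voltage-gated calcium channels were followed in the carotid body and the adrenal medulla of the mouse. The members were the 10 genes of the family, picked by name whatever their level: Cacna1s, Cacna1c, Cacna1d and Cacna1f for the L type, Cacna1a for the P/Q type, Cacna1b for the N type, Cacna1e for the R type, and Cacna1g, Cacna1h and Cacna1i for the T type. All 10 were found among the 23511 entries with an mRNA length, out of 26728 entries in all. The study compared 3 carotid body libraries with 3 adrenal medulla libraries from adult C57/BL6 mice, for which the labels name no treatment and no engineered allele. Each library was a pool of whole dissected tissue, 18 carotid bodies or 10 adrenal medullas from 10 mice, so n counts pools, and fewer cells of a type cannot be told apart from less RNA per cell. The carotid body senses arterial oxygen, and the adrenal medulla releases catecholamines into the blood.

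The alpha1 subunit of a calcium channel holds the ion pore, the voltage sensors and the drug binding sites in a single chain, and the gene therefore sets the channel type. L, P/Q, N and R channels open at strong depolarization and bind a beta and an alpha2delta subunit. T channels open close to the resting potential and inactivate quickly, and they need no auxiliary subunit to carry current. In glomus cells of the carotid body and in chromaffin cells of the adrenal medulla, calcium entry through such channels triggers the release of catecholamines.

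The libraries held 13266225 to 16445925 reads. One unit of RPKM, reads scaled to mRNA length in kilobases and to library depth, stood for 106 to 132 reads of an mRNA of 8 kb. The members ranged from 6.075 kb to 13.841 kb, and 1 RPKM stood for more reads the longer the mRNA. Values below 1 RPKM can therefore still rest on many reads. The intervals below cover spread between pools, except where a counting interval is named, and amplified reads without molecular identifiers are not independent molecules. Counts of pools of the same tissue differed by more than sampling noise (chi-square divided by the number of genes, 42.0 to 159). Carotid body pool 2 stood apart in fat markers, at a summed 2972 RPKM over 6 genes against 202 to 582 in the other 5 libraries, and adrenal medulla pool 3 had 7 reads of 4 Y-linked genes against 1292 to 3277. Of the defining markers, 9 of 9 adrenal cortex genes were higher in the adrenal medulla libraries by limma, with a summed level of 9055 to 12295 RPKM against 29.9 to 116 in the carotid body. Catecholamine cell genes summed to 14654 to 24702 RPKM in the adrenal medulla and 2596 to 3452 in the carotid body, 6 of 9 higher in the former and 1 in the latter.

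Start regions are shown for the member that carried the largest tested difference of those with over 1 RPKM, Cacna1i, and for Cacna1d, the most abundant member in both tissues, which did not pass the test. RefSeq windows of GRCm38.p6, 250 bases before to 50 after a start, were listed for 7 of 10 members; Cacna1a, Cacna1g and Cacna1h had no entry. They are printed 5′ to 3′ on the strand of the gene, and capitals mark matches on either strand to the CRE letters TGACGTCA, the HIF core letters ACGTG or GCGTG, the GC box letters GGGCGG, the TATA letters TATAAA and the CCAAT letters CCAAT, where neighbouring matches can run together.
Cacna1i, chr15:80286988-80287287, plus strand: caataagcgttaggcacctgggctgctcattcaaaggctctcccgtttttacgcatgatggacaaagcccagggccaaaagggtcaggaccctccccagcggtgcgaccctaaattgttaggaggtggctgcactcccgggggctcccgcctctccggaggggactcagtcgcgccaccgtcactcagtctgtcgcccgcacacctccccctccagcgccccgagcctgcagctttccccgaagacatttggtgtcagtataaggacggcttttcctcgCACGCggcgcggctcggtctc
Cacna1d, first start, chr14:30491107-30491406, minus strand: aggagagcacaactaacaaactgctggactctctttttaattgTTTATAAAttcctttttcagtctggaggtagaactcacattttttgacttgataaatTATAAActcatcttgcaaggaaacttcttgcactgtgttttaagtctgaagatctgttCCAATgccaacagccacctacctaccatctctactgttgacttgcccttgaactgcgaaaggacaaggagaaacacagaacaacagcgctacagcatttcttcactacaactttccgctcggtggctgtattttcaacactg
Cacna1d, second start, chr14:30353437-30353736, minus strand: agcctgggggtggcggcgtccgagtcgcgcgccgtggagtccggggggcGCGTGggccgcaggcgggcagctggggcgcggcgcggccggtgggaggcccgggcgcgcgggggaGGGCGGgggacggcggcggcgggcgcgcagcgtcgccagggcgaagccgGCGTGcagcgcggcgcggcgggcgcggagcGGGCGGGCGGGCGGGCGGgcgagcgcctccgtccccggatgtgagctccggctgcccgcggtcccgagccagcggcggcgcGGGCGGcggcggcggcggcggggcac
The Cacna1i window had 62.7% G and C and 1 match to GCGTG, a match found in 32.4% of 32851 RefSeq windows of the same length. The first Cacna1d window, at 40.3% G and C, held 3 matches to TATAAA counted on both strands, of which a pair overlaps, against 13.6% of windows with any. The second Cacna1d window, at 87.3% G and C, had more G and C than 99.98% of windows and held 6 overlapping or separate matches to GGGCGG and 2 to GCGTG, where 35.7% of windows held GGGCGG. None of these 3 windows held TGACGTCA, which 1.79% of windows held, or ACGTG, which 19.6% held. The deposited table has 1 value per gene, so reads from the Cacna1d starts were not told apart.

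Expression of the family was led by Cacna1d in both tissues, and the tissues differed in the T-type genes. Cacna1i was higher in the carotid body, with 5.07 times the mean RPKM of the adrenal medulla. Cacna1g was also higher there, at 16.4 times the mean RPKM, on far fewer reads. Cacna1h, the third T-type gene, was not called, with a mean RPKM 1.54 times as high in the adrenal medulla. Of the 3 members that passed the filter of 1 RPKM in at least 3 libraries, limma called 1, higher in the carotid body, and 0 in the other direction at an adjusted p under 0.05. Over all 13357 genes tested 21.9% were called, 14.2% for the carotid body and 7.73% for the adrenal medulla. In limma-voom on the reads behind the RPKM values, with a filter of 10 reads in at least 3 libraries chosen after the values were seen, 7 members were tested and 2 called, both higher in the carotid body, against 22.1% of 15151 genes called in either direction, 14.4% for the carotid body and 7.7% for the adrenal medulla. Cacna1i passed the first filter, and Cacna1g the second, only through the carotid body libraries, so these counts are a description. At an unadjusted p under 0.05, 0 members by limma and 1 by limma-voom (Cacna1c) were higher in the adrenal medulla, against 12.6% and 12.5% of all genes tested by each. Of the 7 members with that many reads, 4 showed no overlap between the tissues, Cacna1g and Cacna1i with the carotid body above and Cacna1a and Cacna1c with the adrenal medulla above; of all such genes 37.9% did not overlap, 23.2% with the carotid body above and 14.7% with the adrenal medulla above.

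**Figure D1:**
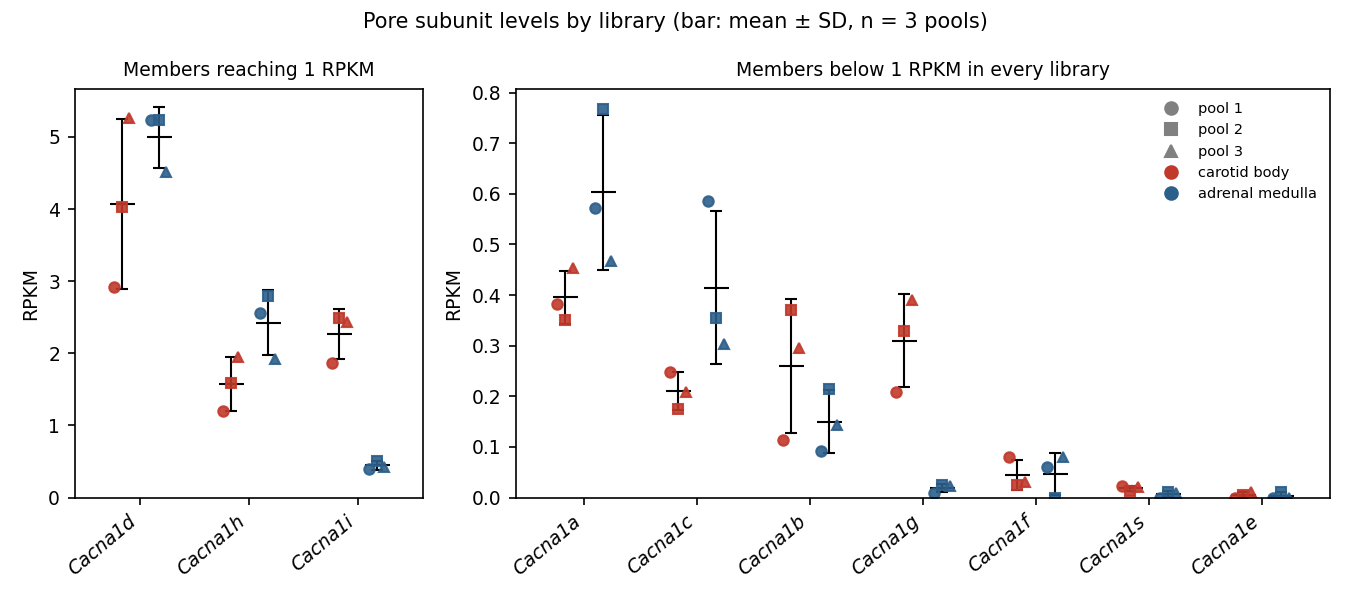
RPKM of the 10 pore subunit genes (y axis) in each library, with red for carotid body and blue for adrenal medulla pools, symbol shape for the pool number, and black bars for the mean ± SD of 3 pools; the left panel holds the genes that reached 1 RPKM and the right panel the others on a finer scale. The Cacna1i points lie at 1.86 to 2.49 RPKM in the carotid body and at 0.401 to 0.513 in the adrenal medulla, and the Cacna1g points at 0.209 to 0.390 and 0.00903 to 0.0255.

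Cacna1i encodes Cav3.3, the T-type pore with the slowest kinetics of the 3, known from thalamic and other neurons. Its RPKM was 1.86, 2.49 and 2.44 in carotid body pools 1, 2 and 3 and 0.401, 0.513 and 0.427 in adrenal medulla pools 1, 2 and 3, from 266, 325 and 373 reads against 53, 72 and 69. Every carotid body pool lay above every adrenal medulla pool, with a gap of over 1 RPKM between the nearest pools. The mean was 2.26 ± 0.347 RPKM against 0.447 ± 0.0586 (SD, n = 3 pools each). On the log2(RPKM + 1) scale, which understates differences of low genes, the log2 difference, carotid body minus adrenal medulla here and below, was 1.17 ± 0.16 (SE; limma adjusted p = 9.43e-04). On reads it was 2.33 ± 0.28 (SE), a 5.02-fold difference with a 95% interval of 3.25 to 7.75 (limma-voom adjusted p = 4.61e-04). With the pools that stood apart left out (pool 2 of the carotid body and pool 3 of the adrenal medulla), the log2(RPKM + 1) difference was 1.11 (limma adjusted p = 0.00777) and that on reads 2.22 (limma-voom adjusted p = 0.00345).

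Cacna1g encodes Cav3.1, the T-type pore of thalamic relay neurons and of pacemaker cells. It had 25, 36 and 50 reads in the carotid body pools and 1, 3 and 3 in the adrenal medulla pools, that is 0.209, 0.329 and 0.390 RPKM against 0.00903, 0.0255 and 0.0221. The tissues did not overlap, and the adrenal medulla pools sat at a few reads each. Summed over pools the reads were 111 and 7, a depth-scaled ratio of 16.2 with an exact 95% counting interval of 7.58 to 41.1. That counting interval leaves out the spread between pools. The log2 difference on reads was 3.79 ± 0.54 (SE; limma-voom adjusted p = 0.00122), a 13.8-fold difference with a 95% interval between pools of 5.89 to 32.5. With the same 2 pools left out, the log2 difference was 3.86 (limma-voom adjusted p = 0.0108). In all 6 libraries the gene was below 1 RPKM and so outside the filter of the main comparison; with no filter its log2(RPKM + 1) difference was 0.36 (limma adjusted p = 0.0205). That fit called 2 members, Cacna1g and Cacna1i, where 11.6% of 23511 entries were called, 7.87% for the carotid body and 3.76% for the adrenal medulla.

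Cacna1h encodes Cav3.2, the T-type pore described in chromaffin cells, in the aldosterone-making zona glomerulosa of the adrenal cortex and in sensory neurons. Its levels were 1.196, 1.58 and 1.95 RPKM in the carotid body pools and 2.57, 2.79 and 1.93 in the adrenal medulla pools. Carotid body pool 3 and adrenal medulla pool 3 overlapped, and the other pools were separated by tissue. The difference was not called, at -0.41 ± 0.20 (SE) on the log2(RPKM + 1) scale (limma adjusted p = 0.190) and -0.63 on reads with a 95% interval of -1.27 to 0.02 (limma-voom adjusted p = 0.167). Leaving out single pools, the log2(RPKM + 1) difference ran from -0.52 (without adrenal medulla pool 3, limma adjusted p = 0.0867) to -0.30 (without carotid body pool 1, 0.438). With both pools that stood apart left out, it was -0.53 (limma adjusted p = 0.114) and that on reads -0.80 (limma-voom adjusted p = 0.0863). Under quantile scaling Cacna1h was called higher in the adrenal medulla (-0.58, limma adjusted p = 0.0451). That scaling called 2 members, Cacna1h and Cacna1i, where 23% of genes were called, 12.7% for the carotid body and 10.4% for the adrenal medulla. Zona glomerulosa markers summed to 24.0 to 59.97 RPKM over 3 genes in the same adrenal medulla libraries, against 7.39 to 14.0 in the carotid body. Limma called 1 of the 2 tested, the aldosterone synthase gene Cyp11b2, at 12.8 to 17.0 RPKM against 0 in carotid body pools 2 and 3. Cyp11b2 passed the filter only through the adrenal medulla. Dab2 made up nearly all of the carotid body sum. It overlapped between the tissues, at 7.18 to 13.9 RPKM in the carotid body against 7.82 to 38.7 (limma adjusted p = 0.663). The part of these markers in the Cacna1h value was not tested.

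Within the T type, Cacna1i and Cacna1h changed places between the tissues, and Cacna1g was last by mean in both. The Cacna1i to Cacna1h ratio of RPKM, which does not depend on how libraries are scaled, was 1.56, 1.57 and 1.25 in the carotid body pools and 0.156, 0.184 and 0.222 in the adrenal medulla pools. Cacna1i was thus the more abundant of the pair in each carotid body pool and the less abundant in each adrenal medulla pool, although the ranges of the pair overlapped in the carotid body, where Cacna1h of pool 3 (1.95) exceeded Cacna1i of pool 1 (1.86). Of the summed T-type RPKM, Cacna1i made up 54.9 ± 3.34%, Cacna1h 37.8 ± 2.65% and Cacna1g 7.35 ± 0.891% in the carotid body (SD, n = 3). The adrenal medulla figures were 15.6 ± 2.25%, 83.7 ± 2.56% and 0.668 ± 0.326%.

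**Figure D2:**
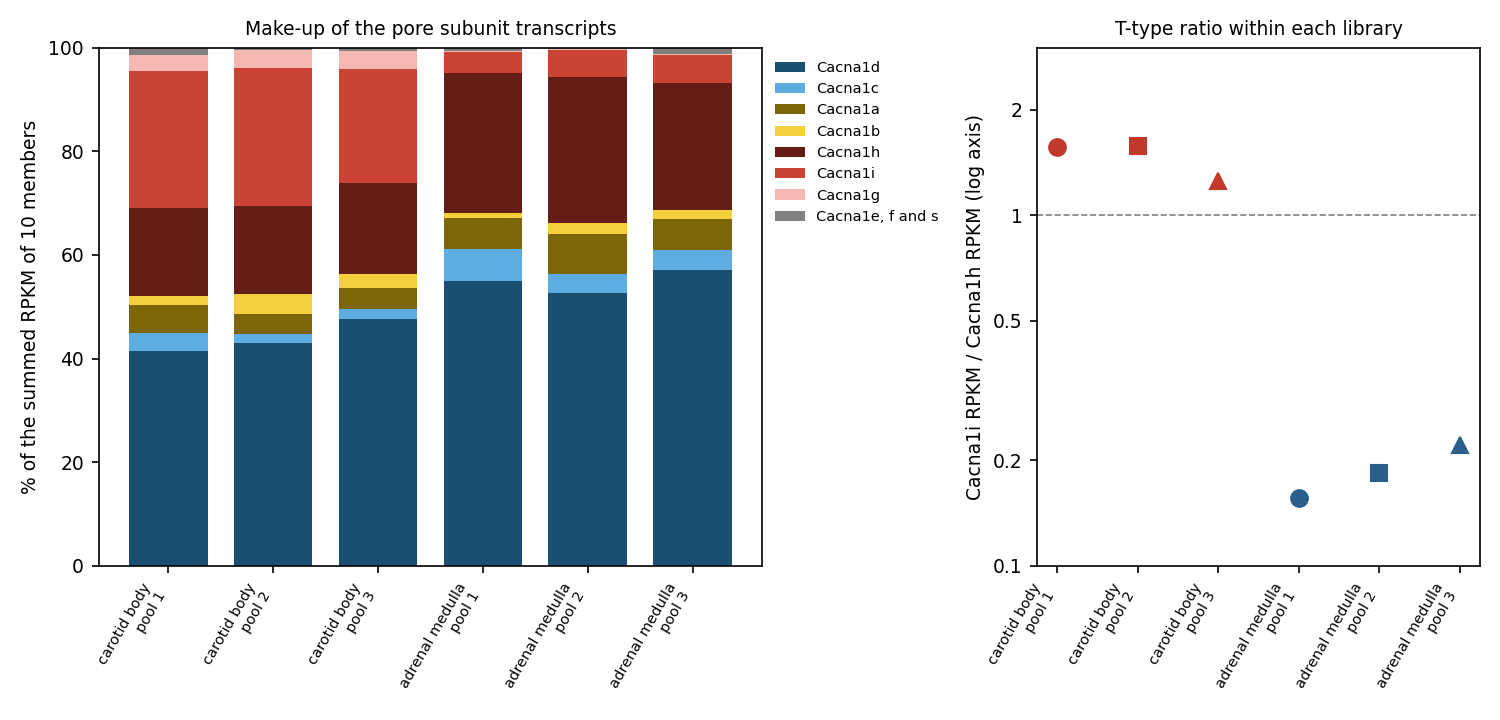
Left, the percentage of the summed RPKM of all 10 members (y axis) taken by each gene in each library (stacked bars); right, the ratio of Cacna1i to Cacna1h RPKM in each library on a log axis, with a dashed line at equal levels. The ratios lie at 1.25 to 1.57 in the carotid body pools and at 0.156 to 0.222 in the adrenal medulla pools.

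Cacna1d, the pore of Cav1.3, an L-type channel that opens at lower voltage than its relatives and drives pacemaking in chromaffin cells and the sinoatrial node, was the most abundant member in all 6 libraries. It stood at 2.92, 4.03 and 5.26 RPKM in carotid body pools 1, 2 and 3 and at 5.24, 5.23 and 4.51 in the adrenal medulla pools. The ranges overlapped, and the carotid body pools spread more widely. The means were 4.07 ± 1.17 and 4.99 ± 0.420 RPKM (SD, n = 3 each), and the difference was not called (-0.27 ± 0.23 SE, limma adjusted p = 0.503). On reads it was -0.33, with a 95% interval of -0.94 to 0.28 (limma-voom adjusted p = 0.458), which spans a carotid body level from 0.520 to 1.22 times that of the adrenal medulla. By mean over each tissue, Cacna1d ranked above 60.1% of the entries with an mRNA length in the carotid body and above 64.6% in the adrenal medulla.

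Cacna1c encodes Cav1.2, the L-type pore of heart and smooth muscle. It was at 0.249, 0.174 and 0.209 RPKM in carotid body pools and 0.586, 0.354 and 0.303 in adrenal medulla pools, from 50, 32 and 45 reads against 109, 70 and 69. The pools did not overlap, and pool 1 of the adrenal medulla was the highest. The log2 difference on reads was -0.91 with a 95% interval of -1.73 to -0.09, but it did not pass after adjustment (limma-voom adjusted p = 0.115, unadjusted 0.0341). Leaving out single pools, it ran from -1.11 (without adrenal medulla pool 3, limma-voom adjusted p = 0.0502) to -0.64 (without adrenal medulla pool 1, 0.306), and was not called. Smooth muscle and pericyte markers ran the other way in these libraries, with 9 of 10 called higher in the carotid body by limma and a summed level of 2550 to 3088 RPKM against 106 to 110. Cacna1d exceeded Cacna1c 11.7 to 25.2 times in the carotid body and 8.94 to 14.9 times in the adrenal medulla.

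The other L-type genes were at the limit of these libraries. Cacna1f, the pore of Cav1.4 at photoreceptor ribbon synapses, had 7, 2 and 3 reads in the carotid body and 5, 0 and 8 in the adrenal medulla. Cacna1s, the voltage sensor of skeletal muscle contraction (Cav1.1), had 2, 1 and 2 reads against 0, 1 and 1. A difference between the tissues was not detectable at this depth for either gene. Photoreceptor markers summed to 0 to 0.305 RPKM over 4 genes in all 6 libraries, with Gnat1 at 0 in each, and skeletal muscle markers to 15.3 to 31.7 RPKM over 9. Of the latter, Acta1 alone was at 11.6 to 21.4 RPKM, while Ckm, Myh1, Myh2 and Myh4 had at most 8 reads in any library. Limma called 2 of the 4 tested, Tnnt3 and Tnni2, higher in the carotid body, and Tnnt3 passed the filter only through those libraries.

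Among the genes of presynaptic channels, Cacna1a had the highest mean in both tissues, although Cacna1b exceeded it in carotid body pool 2. Cacna1a, the P/Q-type pore Cav2.1 of fast synapses, was at 0.382, 0.352 and 0.454 RPKM in carotid body pools and 0.573, 0.769 and 0.468 in the adrenal medulla. All adrenal medulla pools lay above the carotid body pools, the nearest pair by a narrow margin, and the difference was not called (log2 on reads -0.57, 95% interval -1.31 to 0.17, limma-voom adjusted p = 0.275). Cacna1b, the N-type pore Cav2.2 that is blocked by omega-conotoxin GVIA, was at 0.113, 0.370 and 0.296 RPKM against 0.0914, 0.215 and 0.143. Its pools overlapped between tissues and spread widely within the carotid body, from 16 to 48 reads, and the interval of the log2 difference on reads ran from -0.55 to 1.93 (0.69, limma-voom adjusted p = 0.445). Without carotid body pool 1 that difference was 1.196 (adjusted p = 0.132), and without pool 2 it was 0.37 (adjusted p = 0.741). Cacna1e, the R-type pore Cav2.3, had 3 reads over the carotid body pools and 2 over the adrenal medulla pools.

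**Figure D3:**
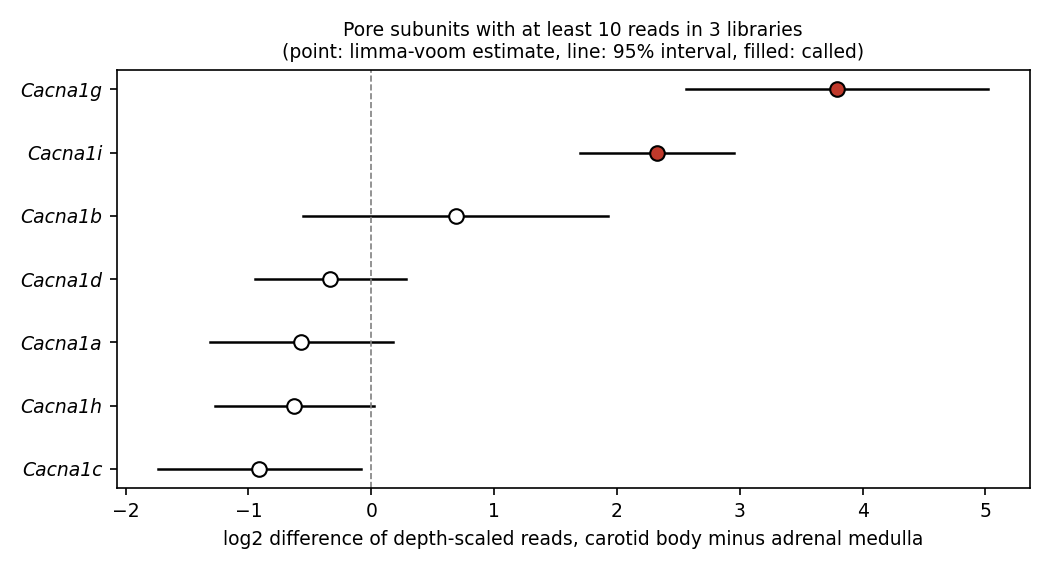
Log2 difference of depth-scaled reads, carotid body minus adrenal medulla (x axis), for the 7 pore subunit genes with at least 10 reads in 3 libraries (y axis); points are limma-voom estimates, lines their 95% intervals, and filled points pass an adjusted p of 0.05. Cacna1g (3.79) and Cacna1i (2.33) lie to the right of 0, and 4 of the 5 open points lie to the left.

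The summed level of the family overlapped between the tissues, and the shares of the T and L types did not; neither was tested. The RPKM of the 10 members summed to 7.03, 9.37 and 11.1 in the carotid body pools and 9.53, 9.92 and 7.89 in the adrenal medulla pools. T-type genes took 46.5%, 47.0% and 43.2% of that sum in the carotid body pools and 31.2%, 33.5% and 30.1% in the adrenal medulla pools. L-type genes took 46.4%, 45.2% and 49.96% against 61.8%, 56.4% and 62.1%. As levels, both types overlapped between the tissues, with T-type sums of 3.27 to 4.77 RPKM in the carotid body and 2.37 to 3.33 in the adrenal medulla, and L-type sums of 3.27 to 5.52 and 4.90 to 5.89. The P/Q, N and R genes took 6.87% to 7.77% and 6.97% to 10.0%. In the carotid body the order by mean RPKM was Cacna1d, Cacna1i, Cacna1h, Cacna1a, Cacna1g, Cacna1b, Cacna1c, Cacna1f, Cacna1s and Cacna1e. Within that order, neighbours from Cacna1i to Cacna1h and from Cacna1a down to Cacna1c overlapped between pools. In the adrenal medulla the order was Cacna1d, Cacna1h, Cacna1a, Cacna1i, Cacna1c, Cacna1b, Cacna1f, Cacna1g, Cacna1s and Cacna1e. There, neighbours from Cacna1a to Cacna1c and from Cacna1f to Cacna1e overlapped, and the other neighbours did not. Orders, shares and ratios between members rest on division by full mRNA length. RNA was amplified from the poly(A) tail, and how evenly reads fell along each mRNA was not tested. In the adrenal medulla Cacna1c, at 13.841 kb, had 248 reads over the pools, more than Cacna1a (209) or Cacna1i (194), yet ranked below both.

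Cell type markers that ran the same way as Cacna1i and Cacna1g were not tested for their part in the differences of these genes. Besides the smooth muscle list, 6 of 6 glia markers were higher in the carotid body by limma (306 to 496 RPKM summed, against 42.9 to 60.6), as were 6 of 6 fibroblast markers (2157 to 2860 against 58.9 to 167) and 4 of 6 endothelial markers (108 to 126 against 36.9 to 53.7). Neuronal markers went both ways, with 3 of 9 called for the carotid body by limma and 1 for the adrenal medulla, and summed to 376 to 394 against 188 to 354 RPKM. Of 3 leukocyte genes tested, 1 was higher in the carotid body by limma, and the 5 with an mRNA length summed to 269 to 322 against 135 to 298 RPKM.

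Reads of the members could in part belong to other transcripts. Exon positions and transcript sequences were taken from the GENCODE M21 annotation, whose build is later than the mm9 of the files. The overlaps and shared runs given here hold for its gene models. In it, 589 exon bases of Cacna1d, all in a last exon, overlap the choline dehydrogenase gene Chdh on the opposite strand. Chdh itself was at 3.24, 3.801 and 4.97 RPKM in the carotid body pools and 3.58, 4.56 and 4.17 in the adrenal medulla pools. Chdh and Cacna1d were both lowest in pool 1 and highest in pool 3 of the carotid body. In the adrenal medulla Chdh was lowest in pool 1, and Cacna1d was nearly level in pools 1 and 2 (5.24 and 5.23 RPKM) and lowest in pool 3 (4.51). The part of Chdh reads in the Cacna1d value was not tested. Cacna1h shares 158 exon bases with the tryptase gene Tpsg1, which was at 1.93 to 3.72 and 1.299 to 4.20 RPKM, and Cacna1a and Cacna1s overlap the noncoding genes Gm16183 and Gm37759. Whether strand was kept in the libraries is not given in the sources used here, so the reads of these pairs cannot be told apart. No exon of Cacna1i or Cacna1g overlapped an exon of another gene. Runs of 32 bases shared between members were few, at most 0.793% of the runs of a gene (Cacna1g), with 0.736% for Cacna1i and 0.591% for Cacna1h.

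The auxiliary subunits traffic and tune the high-voltage channels, beta subunits from the inside and alpha2delta subunits from the outside. Of 16 genes in this list, 8 passed the RPKM filter, with a median log2 difference of 0.04 beside 0.02 over all genes tested. Of all genes tested, limma called 14.2% for the carotid body and 7.73% for the adrenal medulla. Of the 8, it called 1 with the carotid body above and 2 with the adrenal medulla above. These 3 passed the filter only through the tissue where they were higher, and all were also called with no filter (limma adjusted p = 0.00325 to 0.0235). In all, 5 were called without adrenal medulla pool 3, where 3463 of all 13357 genes were called. With the replicate block, the fit that pairs pools of the same number, 5 were called, beside 3613 of all 13357 genes. The pools numbered 3 differed in the sex of their mice, so that pairing is not one of the same mice throughout. Cacna2d3, an alpha2delta gene, was at 3.103, 3.25 and 3.32 RPKM in carotid body pools and 0.542, 0.227 and 0.410 in adrenal medulla pools (1.61 ± 0.16 SE, limma adjusted p = 2.06e-04). All of its carotid body pools were above 3 RPKM and all of its adrenal medulla pools below 1. The alpha2delta gene Cacna2d1, the receptor of gabapentin, was more abundant, at 13.4, 12.5 and 7.06 RPKM against 54.4, 27.5 and 15.8, with no overlap. Cacna2d1 missed the threshold (-1.36, limma adjusted p = 0.0556) and stayed uncalled in 9 of 14 alternatives. Among those 9 were the fit with no filter (limma adjusted p = 0.202) and the loss of adrenal medulla pool 1 (-0.91, 0.127). Dropping pool 3 of the carotid body also left it uncalled (-1.09, 0.182). Cacna2d1 passed in 5 alternatives. These were the replicate block (limma adjusted p = 0.00629) and other scalings (0.0372 and 0.0430). It also passed without adrenal medulla pool 3 (-1.77, limma adjusted p = 0.00790) and with both pools that stood apart left out (-1.88, 0.0204).

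The beta subunit genes differed in Cacnb2, a beta subunit of heart and neurons, at 0.891, 0.936 and 0.651 RPKM in carotid body pools and 5.9995, 4.00 and 3.02 in adrenal medulla pools (-1.51 ± 0.23 SE, limma adjusted p = 0.00181). Cacnb3, the most abundant beta gene, was at 15.2 ± 4.87 and 13.4 ± 3.39 RPKM (SD, n = 3; limma adjusted p = 0.810, with a 95% interval of the log2 difference of -0.56 to 0.85). Cacng3, a gamma family gene whose product also escorts AMPA receptors, was at 0.147 ± 0.103 RPKM against 2.22 ± 0.964 (-1.45, limma adjusted p = 0.00162). On reads, the gamma family gene Cacng4 was also called, higher in the carotid body (log2 2.80, limma-voom adjusted p = 0.00964), though it reached 10 reads only in the carotid body libraries, and Cacng6 had no read in any library.

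**Figure D4:**
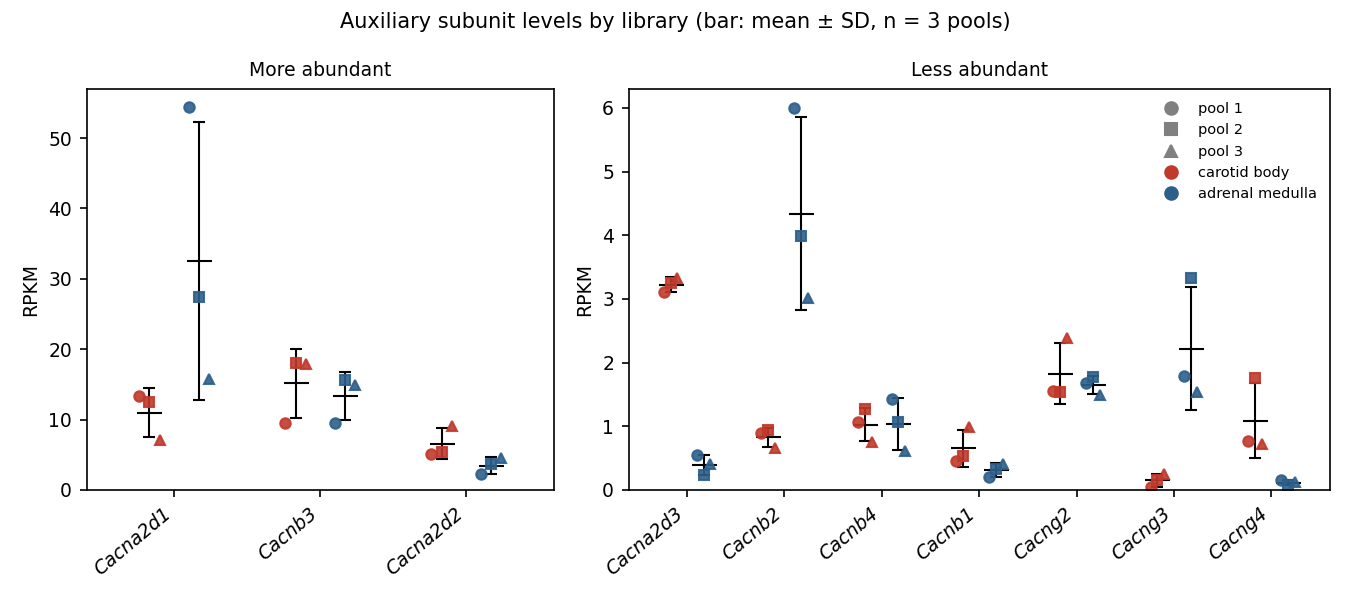
RPKM (y axis) of 10 of the 16 auxiliary subunit genes in each library, with red for carotid body and blue for adrenal medulla pools, symbol shape for the pool number and black bars for the mean ± SD of 3 pools; the panels differ in scale. Cacna2d3 lies at 3.103 to 3.32 RPKM in the carotid body against 0.227 to 0.542, and Cacnb2 at 0.651 to 0.936 against 3.02 to 5.9995.

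Genes whose products bind or act beside calcium channels were listed as well, calcium-activated potassium channels among them. Of 36, 26 were tested by limma, with 3 called for the carotid body, 6 called for the adrenal medulla and 17 not called. Their median log2 difference was -0.15 beside 0.02 over all genes tested. Of all genes tested, limma called 14.2% for the carotid body and 7.73% for the adrenal medulla. Kcnn2, the small-conductance channel SK2, averaged 0.891 ± 0.188 RPKM in carotid body pools and 11.99 ± 7.41 in adrenal medulla pools (-2.63 ± 0.37 SE, limma adjusted p = 0.00116). The calcium sensor genes Caln1 (-2.34, limma adjusted p = 8.08e-04), Hpca (-1.78, 6.04e-04) and Cabp1 (-1.42, 0.0268) were higher in the adrenal medulla, as was Kcnma1, the large-conductance BK channel (-1.54, 0.0490). Ahnak, a large scaffold that binds beta subunits, was higher in the carotid body (29.0 ± 6.29 RPKM, against 2.96 ± 1.33; log2 difference 2.96 ± 0.31 SE, limma adjusted p = 2.24e-04). Named after their values were seen, the L-channel partner Stac (1.04, limma adjusted p = 0.0224) and the calcium sensor Ncs1 (0.75, 0.0154) were also higher there, and the kinase subunit Camk2b (-0.93, 0.0215) was higher in the adrenal medulla. Caln1 passed the filter only through the adrenal medulla libraries, and it was also called with no filter (limma adjusted p = 0.0221). On reads, 32 of the list were tested, with 4 called for the carotid body and 9 for the adrenal medulla. The shares of all genes tested on reads were 14.4% and 7.7%. On that scale the Stac paralogues Stac2 (-3.73, limma-voom adjusted p = 5.32e-04) and Stac3 (-3.38, 0.0207) were higher in the adrenal medulla, opposite to Stac, as was the active-zone gene Bzrap1 (-1.36, 0.0154). Stac2 and Stac3 reached 10 reads only in the adrenal medulla libraries. The call of Stac3 ended on leaving out pool 1 or 2 of the carotid body or pool 2 of the adrenal medulla (limma-voom adjusted p = 0.0606 to 0.0892), and that of Bzrap1 on leaving out pool 1 or 2 of the carotid body (0.0606 and 0.0558). The call of Kcnma1 ended on leaving out any single pool but adrenal medulla pool 3 (limma adjusted p = 0.0885 to 0.150). That of Cabp1 ended on leaving out pool 1 or 2 of the carotid body or pool 2 of the adrenal medulla (0.0725 to 0.109). That of Stac ended when carotid body pools 2 or 3 or pool 1 of the adrenal medulla were left out (0.0698 to 0.0940), and Ncs1 without carotid body pool 3 or adrenal medulla pool 2 (0.0668 and 0.0584). The Camk2b call ended on leaving out pool 1 or 2 of the carotid body or pool 2 of the adrenal medulla (0.0767 to 0.0816). Leaving out both pools that stood apart ended the calls of Cabp1 (0.0868), Stac (0.0733) and Camk2b (0.0657), and using no filter ended those of Kcnma1 (0.196), Cabp1 (0.132) and Stac (0.0691). Without carotid body pool 2, 5 genes of the list were called, beside 2472 of all 13357 genes.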

How the data were processed

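The deposited table holds RPKM made by the authors, 1 column per pool. Reads were aligned with Bowtie 0.9.8 to mm9, per the submitters' processing notes; the counting rule and strand are not given in the sources used here. RNA was amplified with a kit that starts from the poly(A) tail, per the labels' protocols, and where reads fall along an mRNA is not in the table. RPKM times length gave whole reads, within 0.01, for 106276 of 106276 values, and these reads went into limma-voom. The 3217 entries without a length hold raw reads and were left out.

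Tissues were compared by moderated limma fits (version 3.58.1, R 4.3.3) of log2(RPKM + 1), with a variance trend, over 13357 genes of at least 1 RPKM in at least 3 of 6 libraries, two-sided, with Benjamini-Hochberg adjustment over all of them. The fits were also run on simulated reads with known changes in far fewer genes than were called here and the same spread for every gene. That run does not show how they behave on these data. Whether pools of the same number came from the same mice is not stated. Those numbered 3 differed in the sex of their mice, and so were not from the same mice. They had 7 Y-linked and 1413 Xist reads in the adrenal medulla against 1292 and 72 in the carotid body. The p-values measure only the spread between these pools. Deviations of same-numbered pools had r = 0.26, 0.13 and 0.47 over genes for numbers 1, 2 and 3, and these pools were treated as paired in an alternative fit. Carotid body pool 2 and adrenal medulla pool 1 had r = 0.29, above the values of their own numbers, so the pairing is not borne out. Deviations are taken from the mean of each tissue, so these values depend on each other. All 10 members were named, and up to 6 called genes per list. For Cacna1d, the most abundant member in each tissue, the rule also named the 3 most similar genes, of which 1 is not reported here. The members and lists were chosen with earlier results of these data known. Alternatives were a pseudocount of 0.1, no filter, other scalings, reads, the block and libraries left out. Python 3.11.15, pandas 2.3.3 and matplotlib 3.10.9 served for summaries and plots.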

Additional observations from a re-analysis of the deposited data

How the results depend on the processing

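With all pools, limma called 2929 genes, and 2173 to 3995 under the alternatives, within 1.5 times; without a single library the range was 2173 to 3463. With both pools that stood apart left out, calls for the adrenal medulla rose from 1033 to 2067 and those for the carotid body went from 1896 to 1928, so that the carotid body share of calls was 48.3% in place of 64.7%. With the replicate block, the pairing of same-numbered pools, 3613 genes were called, 1 member was called as before, and Cacna2d1 and the auxiliary list are given above. The count of pore subunits called, 1, became 2 with no filter (Cacna1g added), 2 under quantile scaling (Cacna1h added, higher in the adrenal medulla) and 2 on reads with the filter of 10 reads, an alternative added after the data were examined (Cacna1g added); without any single library it stayed at 1. Of 105 alternative values for the members' log2 differences, 104 kept direction and side of the threshold and 0 reversed. These values cover 7 members, with Cacna1d, Cacna1h and Cacna1i counted on both scales. They share libraries, and differences that were not called and stayed so count as kept. Cacna1i on the RPKM scale and Cacna1g on reads passed their filters only through the carotid body. The tally is therefore a description. On the log2(RPKM + 1) scale Cacna1i ranged from 0.94 to 1.26 (limma adjusted p = 7.60e-04 to 0.00777), with a pseudocount of 0.1 it was 2.11, and on reads it ranged from 2.22 to 2.46 (limma-voom adjusted p = 3.78e-04 to 0.00345). Cacna1g on reads ranged from 3.46 to 4.05 (limma-voom adjusted p = 0.00122 to 0.0108). Of 18 genes of the accompanying lists, 9 kept their side in every alternative and 0 reversed. Depth limits Cacna1e, Cacna1f and Cacna1s, which were tested only with no filter and not called there.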

Other observations

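Relatives of the pore subunits and partners of these relatives were listed as well. The sodium leak channel gene Nalcn, which sets resting excitability, averaged 4.93 ± 1.398 RPKM over carotid body pools and 5.84 ± 2.66 over adrenal medulla pools (SD, n = 3 pools), and its partners Unc80 and Fam155a were at 4.75 ± 1.66 against 5.87 ± 2.76 and 29.9 ± 3.64 against 28.2 ± 4.33. None of these 3 was called by limma (adjusted p = 0.844, 0.784 and 0.840), and the 95% interval of the log2 difference of Nalcn ran from -0.93 to 0.65. The mean RPKM of Nalcn was above that of every pore subunit in both tissues, though Cacna1d exceeded it in carotid body pool 3 (5.26 against 4.12) and adrenal medulla pool 3 (4.51 against 2.79). Of 10 genes in this list, 6 were tested and 1 was called, where 21.9% of all genes tested were called. That gene was the endolysosomal channel gene Tpcn1, higher in the carotid body (0.98, limma adjusted p = 0.0154). The call ended in 3 of 14 alternatives, among them without carotid body pool 3 (limma adjusted p = 0.0533) or adrenal medulla pool 1 (0.0554). The largest adjusted p over the 14 limma and limma-voom fits was 0.0660. The sperm channel genes Catsper1 and Catsper4 had no read in any library.

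Over the 6 libraries, the genes whose log2(RPKM + 1) profile was most like that of Cacna1d, among 13356 compared, included Eogt (Pearson r = 0.983) and Cox7a2 (0.970), a description over libraries that share their depth and pools.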
